A study of Mus musculus with 12 samples.

Results

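Colon tumours of wild-type (WT) mice that had received St2-/- bone marrow were compared with colon tumours of WT mice that had received WT bone marrow. The groups were chosen by their labels, and they hold 6 of the 12 libraries of the study, 3 in each group. All 6 mice were male and of the Balb/c background. Hosts were irradiated with 2 doses of 5 Gy, were given marrow, and were left for 8 weeks to rebuild their blood cells. They then received azoxymethane (AOM), a carcinogen that induces colon tumours, at 10 mg/kg once weekly for 6 weeks. Tumours were taken 13 weeks after the last injection for replicates 1 and 2 and 14 weeks after it for replicate 3, in both groups. The St2-/- marrow differed from the WT marrow in St2 alone as far as the labels state, and both groups shared WT hosts, irradiation, transplantation and AOM. The remaining 6 libraries came from St2-/- hosts with WT or St2-/- marrow, 3 of each. Irradiation, time to rebuild blood cells and AOM were the same for them. Their tumours, replicates 1 to 3, were taken 14, 13 and 13 weeks after the last injection under WT marrow. Under St2-/- marrow it was 14, 14 and 13 weeks, so weeks were not balanced in that comparison. The WT hosts keep St2 in the cells that do not come from marrow, and the sources used here do not say how much of the blood cell compartment came from the donor.

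ST2, encoded by Il1rl1, is the receptor for interleukin-33. Interleukin-33 is stored in the nucleus of epithelial and stromal cells and acts as an alarm signal when those cells are damaged. It binds ST2 together with the co-receptor IL1RAP, which signals through MYD88 to NF-kB. Among marrow-derived cells, mast cells, group 2 innate lymphoid cells, some regulatory T cells, eosinophils and basophils are known to carry ST2, and in the gut it is also found on stromal and epithelial cells. The comparison therefore asks what differs in a tumour when the marrow-derived cells lack ST2 and the host's own cells have it.

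Il1rl1 lies on chromosome 1 of GRCm38 at chr1:40429570-40465415, on the plus strand, and the RefSeq promoter table holds 2 start sites for it, 10059 bases apart. They are shown because the upstream start is known for its use in blood cells such as mast cells and the downstream start for its use in fibroblasts, so that marrow and host cells can reach this gene through different starts. The 250 bases before each start (RefSeq, GRCm38.p6, plus strand, 5′ to 3′) are given. Capitals mark the letters GATAA, 1 form of the site that GATA factors recognise, or TTATC, the same form on the other strand. Other forms of that site were not marked or counted.
Il1rl1 upstream start (chr1:40429320-40429569): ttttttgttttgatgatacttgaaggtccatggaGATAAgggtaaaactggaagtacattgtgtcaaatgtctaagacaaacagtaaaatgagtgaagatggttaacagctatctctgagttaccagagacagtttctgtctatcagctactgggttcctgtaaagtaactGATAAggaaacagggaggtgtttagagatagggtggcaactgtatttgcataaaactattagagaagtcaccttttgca
Il1rl1 downstream start (chr1:40439379-40439628): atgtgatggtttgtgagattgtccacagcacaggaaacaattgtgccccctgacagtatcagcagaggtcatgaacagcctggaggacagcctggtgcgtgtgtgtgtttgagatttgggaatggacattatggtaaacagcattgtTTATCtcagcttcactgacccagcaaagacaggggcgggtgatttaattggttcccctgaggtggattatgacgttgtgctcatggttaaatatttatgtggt
The upstream window held 2 matches and the downstream window 1. Of the 32851 promoter windows of this length in the table, 22.6% held at least 1 match and 4.28% held 2 or more. A match describes letters only. The deposited counts are summed over the gene, so which start was used in a tumour cannot be read from them.

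Removal of ST2 from the marrow left no detectable mark on Il1rl1 itself in the whole tumour. Il1rl1 stood at 53.5, 132 and 275 CPM (read counts scaled to library size) in the control tumours, replicates 1 to 3, and at 124, 36.5 and 193 CPM in the tumours with St2-/- marrow. The ranges overlapped, and within each group the highest library was several times the lowest. The log2 fold change, tumours with St2-/- marrow against controls here and below, was -0.38 with a standard error (SE) of 0.66 and a 95% confidence interval of -1.84 to 1.07 (edgeR adjusted p = 0.942). Its sign turned when 1 library was left out, to 0.04 without replicate 2 of the St2-/- marrow group and to 0.34 without replicate 3 of the controls. In hosts that lacked St2, Il1rl1 was lower, at 7.29 to 25 CPM under WT marrow and 7.91 to 13.4 CPM under St2-/- marrow, all below every WT host library. Reads thus remained in tumours whose host and marrow were both labelled St2-/-; the sources used here do not name the exons that the allele lacks, so a gene-level count does not show the loss of the protein.

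**Figure D1:**
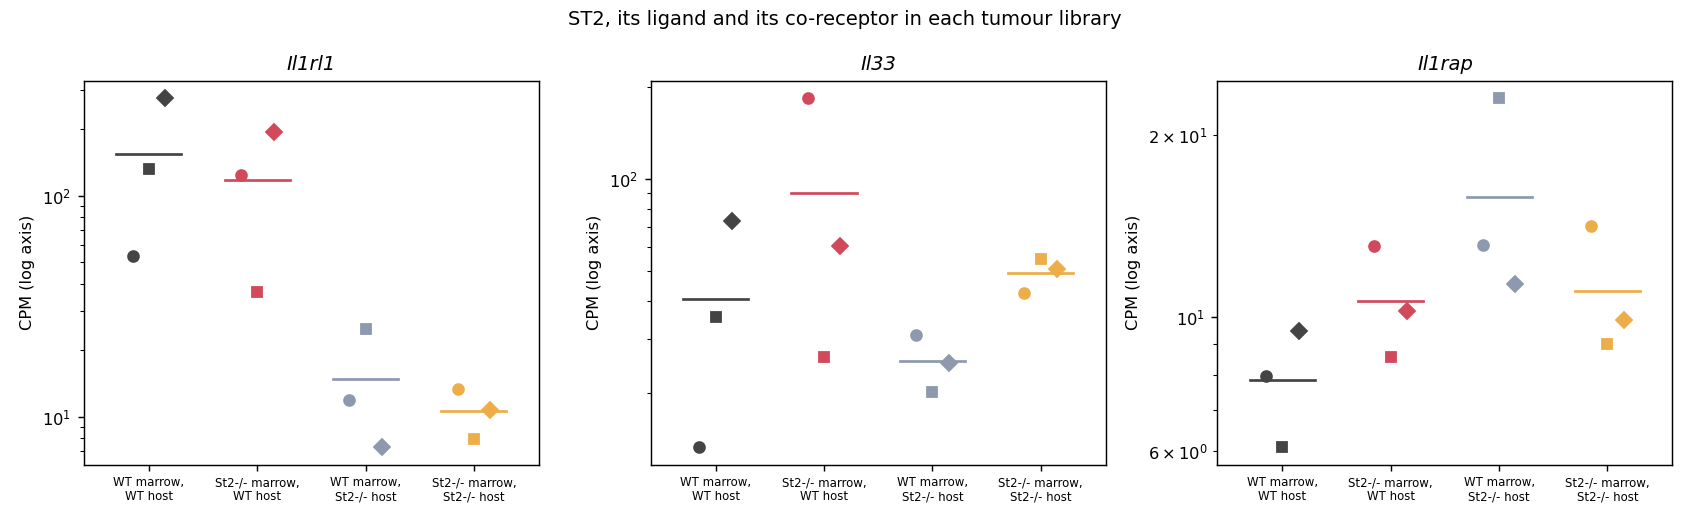
CPM (log axis) of Il1rl1 (ST2), Il33 (its ligand) and Il1rap (its co-receptor) in each of the 12 tumour libraries, by marrow and host. Circles, squares and diamonds are replicates 1, 2 and 3, and lines are arithmetic means. The WT host groups on the left overlap for all 3 genes, and Il1rl1 is lower in every library from an St2-/- host.

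Il33, the ligand, was at 13.3, 35.5 and 73.2 CPM in controls and at 184, 26.3 and 60.6 CPM with St2-/- marrow. Only replicate 1 of the St2-/- marrow group lay above the control range. The log2 fold change was 1.15 (SE 0.66, interval -0.32 to 2.61, edgeR adjusted p = 0.813), and 0.09 without that library. Il1rap, the co-receptor, showed a log2 fold change of 0.44 (SE 0.32), and Sigirr, an inhibitory receptor of the family, of 0.17 (SE 0.13). Myd88, the adaptor, stood at 74.8 to 85.9 CPM in controls and at 71.2 to 84.8 CPM with St2-/- marrow. Its log2 fold change of -0.07 had an interval of -0.42 to 0.28. All 20 genes of the interleukin-33 and ST2 signalling list were tested. Their median log2 fold change was 0.04 with a range of -0.38 to 1.15, and in 0 of 20 were the groups free of overlap. Over all genes tested, 10.3% had groups that did not overlap.

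Across the transcriptome no gene passed the test. Of 15060 genes tested with edgeR's quasi-likelihood test, 0 (0%) had an adjusted p under 0.05, and the lowest adjusted p was 0.798. An unadjusted p under 0.05 was found for 910 genes (6.04%), against 753 that chance alone gives at this threshold. They were 440 higher (2.92%) and 470 lower (3.12%) with St2-/- marrow. DESeq2 also called 0 genes, with 1188 at an unadjusted p under 0.05, and limma-voom with quality weights called 0, with 2431. The median log2 fold change of all genes was 0.01.

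The precision of the log2 fold changes comes from a fit over all 12 libraries. The 6 libraries held 10638001 to 12962496 gene counts each, and the median SE of a log2 fold change was 0.255, with quartiles of 0.166 and 0.468. For 9185 genes (61.0%) the 95% interval lay within 1 log2 unit of 0 on both sides, and for 3516 genes (23.3%) within 0.5. Among the 10704 genes with a mean of at least 10 CPM, 79.4% had an interval within 1 log2 unit. For the remaining 20.6% of these the interval reached beyond a 2-fold difference. By their medians, tumours of different marrow were about as far apart as tumours of the same marrow. The root mean square difference in log2 CPM was 0.527 to 1.07 between groups (median 0.718, 9 pairs), 0.699 to 0.990 among controls (median 0.714, 3 pairs) and 0.615 to 0.833 among tumours with St2-/- marrow (median 0.764, 3 pairs).

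Alignments without a unique position formed 36.7% to 37.2% of a library in the St2-/- marrow group (37.0 ± 0.212, SD, n = 3) and 40.0% to 42.9% in controls (41.5 ± 1.42, SD, n = 3). These did not overlap, and the exact two-sided permutation test gave p = 0.1, the smallest possible with 3 against 3. Entries that name no gene took 49.8% to 50.2% against 52.0% to 53.2% of each library (exact permutation p = 0.1). The third share compared, that of the 10 most abundant genes, was 3.79% to 4.72% against 3.72% to 5.12% (exact permutation p = 0.8). The part of this difference in the results for single genes was not tested. The tumours carried the epithelial genes of colon, with a summed level of 12 epithelial markers between 12800 and 17400 CPM in all 6. In whole tumours, fewer cells of a type and less RNA per cell cannot be told apart.

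With predicted genes, pseudogenes, Xist and Y-linked genes left out, 210 genes differed by at least 1 log2 unit without overlap between the libraries. They also had a mean of at least 1 CPM in 1 of the 2 groups, and 165 were higher and 45 lower with St2-/- marrow. Over all 15060 genes tested, without these limits, 738 (4.9%) were higher without overlap and 814 (5.41%) lower. Of the 210, the 12 with the smallest unadjusted p in each direction are named here. Their unadjusted p (edgeR) lay between 0.000791 and 0.0117, and the edgeR adjusted p of each was 0.798. None is a call, and the absence of overlap was part of their selection.

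**Figure D2:**
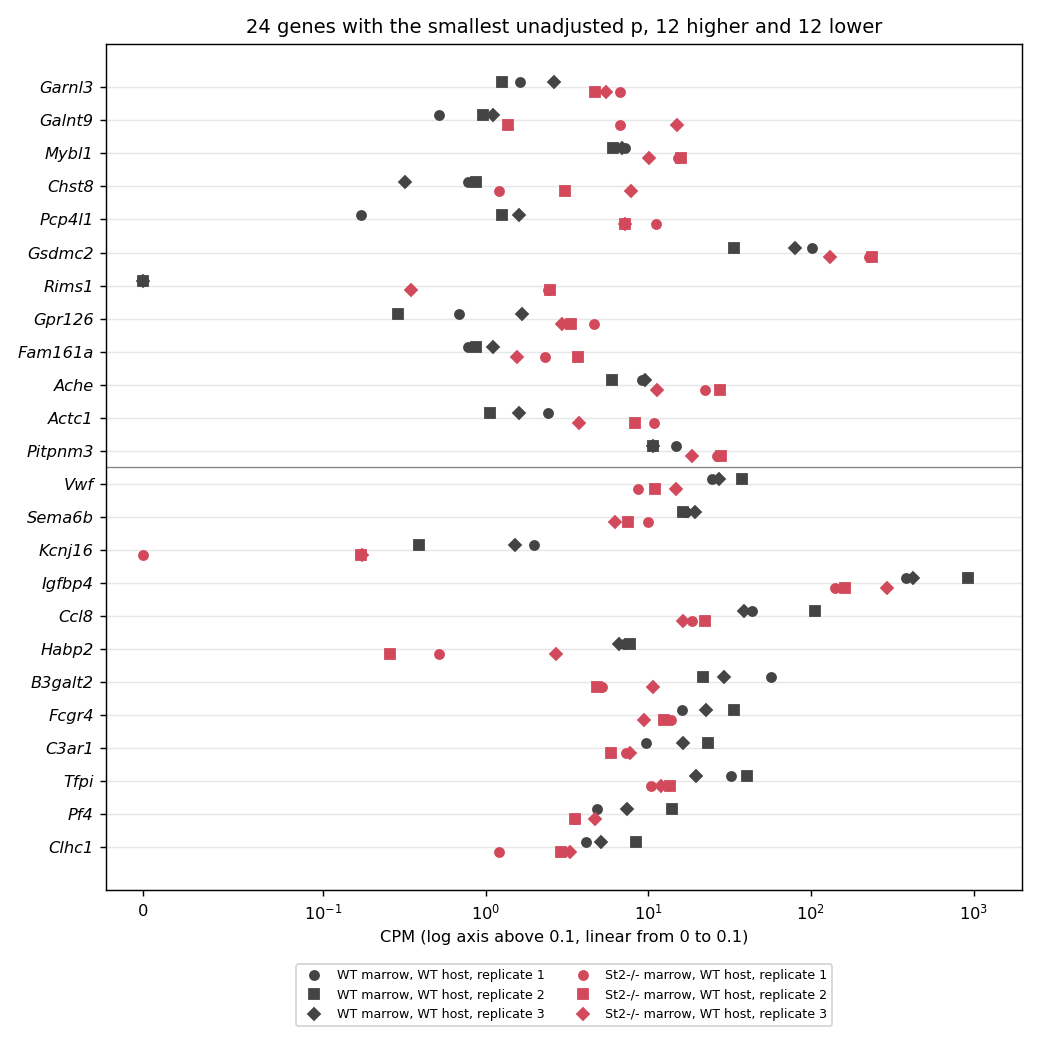
CPM of the 24 named genes in the 6 WT host tumours, on an axis that is logarithmic above 0.1 and linear from 0 to 0.1. Black symbols are WT marrow and red symbols St2-/- marrow. By selection the colours do not overlap in any row; the upper 12 genes were higher and the lower 12 lower with St2-/- marrow.

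Among the genes that were lower with St2-/- marrow, several belong to blood vessels and clotting. Vwf, on chromosome 6 at chr6:125546774-125686679, encodes von Willebrand factor, made by endothelium and platelets, and had the smallest p of all genes tested. It stood at 24.6, 37.7 and 27.4 CPM in controls and at 8.62, 11.1 and 14.7 CPM with St2-/- marrow. Its log2 fold change was -1.38 (SE 0.30, interval -2.04 to -0.72). Tfpi, an inhibitor of the clotting cascade, was at 19.6 to 40.5 CPM in controls and at 10.4 to 13.6 CPM with St2-/- marrow (log2 fold change -1.35, SE 0.41). Pf4, a chemokine of platelets, had a log2 fold change of -1.15 (SE 0.37). Vwf included, 17 of 18 endothelial markers had a log2 fold change below 0, against 7225 of all 15060 genes tested. The list median was -0.44, and Vwf was the 1 member under an unadjusted p of 0.05, against 3.12% of all genes in that direction. The summed level of the endothelial list did not separate the groups, at 221, 792 and 534 CPM against 359, 255 and 473 CPM.

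Another set is known from macrophages and other myeloid cells. Ccl8, a chemokine that draws monocytes and eosinophils, was at 43.4, 106 and 38.6 CPM in controls and at 18.4, 22.3 and 16.4 CPM with St2-/- marrow. Control replicate 2 was the highest (log2 fold change -1.72, SE 0.46). Fcgr4, an activating receptor for IgG, was at 16.1, 33.7 and 22.7 CPM against 13.9, 12.5 and 9.37 CPM. C3ar1, the receptor for complement fragment C3a, was at 9.70, 23.2 and 16.2 CPM against 7.24, 5.92 and 7.72 CPM. Their log2 fold changes were -1.02 (SE 0.30) and -1.23 (SE 0.37), and in both genes the highest control was again replicate 2. Of 18 macrophage and monocyte markers, 13 had a log2 fold change below 0, against 7225 of all 15060 genes, and the list median was -0.46. Emr1, which encodes the macrophage antigen F4/80, was the 1 member under an unadjusted p of 0.05, at 9.62, 23.5 and 11.9 CPM against 6.12, 4.71 and 6.16 CPM (log2 fold change -1.40, SE 0.48). C1qa, a chain of complement C1q, had a log2 fold change of -0.80 (SE 0.38). Without control replicate 2 the list median was -0.08, so that its size rested on that tumour. The summed marker level was 860, 1850 and 1300 CPM in controls and 1200, 1260 and 770 CPM with St2-/- marrow, which overlapped.

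The other genes named as lower were not grouped by function. Igfbp4, a binding protein of insulin-like growth factors, was at 382, 921 and 422 CPM in controls and at 140, 163 and 292 CPM with St2-/- marrow. The log2 fold change was -1.53 (SE 0.40). Sema6b, a semaphorin, was at 17.0, 16.3 and 19.5 CPM against 9.91, 7.46 and 6.24 CPM (log2 fold change -1.16, SE 0.28). B3galt2, a galactosyltransferase, was at 56.6, 21.6 and 29.3 CPM against 5.17, 4.80 and 10.7 CPM (log2 fold change -2.38, SE 0.67). Habp2, a serine protease that binds hyaluronan, was at 6.61 to 7.73 CPM in controls and at 0.257 to 2.69 CPM with St2-/- marrow (log2 fold change -2.62, SE 0.72). Kcnj16, a potassium channel, and Clhc1 had log2 fold changes of -3.38 (SE 0.84) and -1.24 (SE 0.41), both at under 10 CPM in every library.

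Of the 12 genes named as higher, Mybl1, a transcription factor of the Myb family, was at 7.21, 6.09 and 6.85 CPM in controls and at 15.2, 15.9 and 10.2 CPM with St2-/- marrow. Its controls lay close together (log2 fold change 1.03, SE 0.24). Pitpnm3, of the phosphatidylinositol transfer protein family, was at 14.8, 10.7 and 10.8 CPM against 26.3, 28.1 and 18.6 CPM (log2 fold change 1.01, SE 0.29). Garnl3 had the smallest p of the higher genes, at 1.63, 1.26 and 2.63 CPM against 6.72, 4.71 and 5.46 CPM (log2 fold change 1.60, SE 0.37). These 3 genes had St2-/- marrow values that stayed within about 2-fold of each other.

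Gsdmc2, a gasdermin of the intestinal epithelium at chr15:63824346-63845177, was at 102, 33.7 and 79.3 CPM in controls and at 226, 239 and 131 CPM with St2-/- marrow (log2 fold change 1.47, SE 0.39). As the selection required, all 3 tumours with St2-/- marrow were above the highest control. Its neighbour Gsdmc3 had a log2 fold change of 1.83 (SE 0.61), without overlap, and Gsdmc4 one of 1.16 (SE 0.56), with overlap. The pseudogene Gsdmcl-ps had one of 1.89 (SE 0.48), without overlap. Gsdmc2, Gsdmc3 and Gsdmc4 are close copies, and reads that fit more than 1 of them were not counted, so their separate values are uncertain.

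Galnt9, which starts O-linked sugar chains, and Chst8, a sulfotransferase, had log2 fold changes of 3.14 (SE 0.73) and 2.62 (SE 0.64). Both were highest in replicate 3 of the St2-/- marrow group, at 15.1 and 7.80 CPM, and controls lay at 0.318 to 1.11 CPM. Fam161a, a protein of cilia, had a log2 fold change of 1.45 (SE 0.40). Pcp4l1 was at 0.172, 1.26 and 1.59 CPM against 11.1, 7.20 and 7.20 CPM (log2 fold change 3.06, SE 0.75).

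The remaining 4 higher genes are known from nerve, glia or contractile cells. Ache, acetylcholinesterase, was at 9.10, 5.99 and 9.55 CPM in controls and at 22.2, 27.5 and 11.4 CPM with St2-/- marrow (log2 fold change 1.31, SE 0.37). Actc1, an actin of muscle, showed a log2 fold change of 2.17 (SE 0.62), and Gpr126, a receptor needed by Schwann cells, one of 2.01 (SE 0.55). Rims1, a scaffold of the synapse, had 0 reads in all 3 controls and 61 reads in the tumours with St2-/- marrow, spread as 2.41, 2.49 and 0.347 CPM. Set against a floor of 3 counts over the control group (0.0868 CPM), its pooled level of 1.75 CPM was at least 20.2-fold higher. That bound covers counting error only.

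Smooth muscle and enteric nerve genes had more members with an unadjusted p under 0.05 than the other lists. Both counts fell when replicate 1 of the St2-/- marrow group was left out. Of 20 smooth muscle genes, 11 had an unadjusted p under 0.05, all higher with St2-/- marrow, against 2.92% of all genes, and the list median was 1.30. In 5 of the 20 the groups did not overlap, against 4.9% of all genes in this direction (5.41% in the other). Actg2, an actin of visceral smooth muscle, was at 19.8, 27.0 and 39.5 CPM in controls and at 412, 188 and 59.2 CPM with St2-/- marrow. Replicate 1 was the highest by more than 2-fold and replicate 3 lay near the controls (log2 fold change 2.93, SE 0.87). Cnn1, calponin, was at 6.10, 6.76 and 26.9 CPM against 280, 103 and 32.3 CPM, in the same order (log2 fold change 3.37, SE 1.06). Myh11, the smooth muscle myosin, and Synm, an intermediate filament protein, showed log2 fold changes of 2.77 (SE 0.94) and 2.65 (SE 0.93). The summed level of the list was 935, 1480 and 1350 CPM in controls and 4510, 2800 and 1440 CPM with St2-/- marrow, where replicate 3 was below the highest control. Without replicate 1 of the St2-/- marrow group, 2 of the 20 genes had an unadjusted p under 0.05, and the median was 0.86. The count was 4, 5 and 8 without control replicates 1, 2 and 3.

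Of 19 tested genes of enteric neurons and glia, 9 had an unadjusted p under 0.05, all higher, against 2.92% of all genes. In 10 of the 19 the groups did not overlap, against 4.9% of all genes in this direction. The list median was 2.27. Uchl1, a neuronal ubiquitin hydrolase, was at 0.944, 0.870 and 2.71 CPM in controls and at 23.9, 6.69 and 4.60 CPM with St2-/- marrow, with replicate 1 again the highest (log2 fold change 2.94, SE 0.95). Stmn2, a tubulin-binding protein of neurons, and Gfap, the filament protein of glia, had log2 fold changes of 2.24 (SE 0.77) and 3.72 (SE 1.28). Sox10, a transcription factor of glia, was at 0, 0 and 0.0796 CPM against 1.98, 0.686 and 0.0867 CPM. Summed over the list the level was 45.3, 33.3 and 54.6 CPM in controls and 295, 104 and 68.7 CPM in the others, which did not overlap. Without replicate 1 of the St2-/- marrow group 2 members had an unadjusted p under 0.05, and the list median was 1.64. With the smooth muscle level of each tumour as a covariate, 0 did, and the median of the neuron and glia list was 0.58. Of the genes named above as higher, Ache, Actc1 and Gpr126 had log2 fold changes of 0.84, 1.00 and 1.49 with that covariate, from 1.31, 2.17 and 2.01 without it. Grem1, a BMP antagonist of the muscle layer and stroma, was at 59.7 CPM in replicate 1 of the St2-/- marrow group and at 0.687 to 5.46 CPM in the other 5 tumours.

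**Figure D3:**
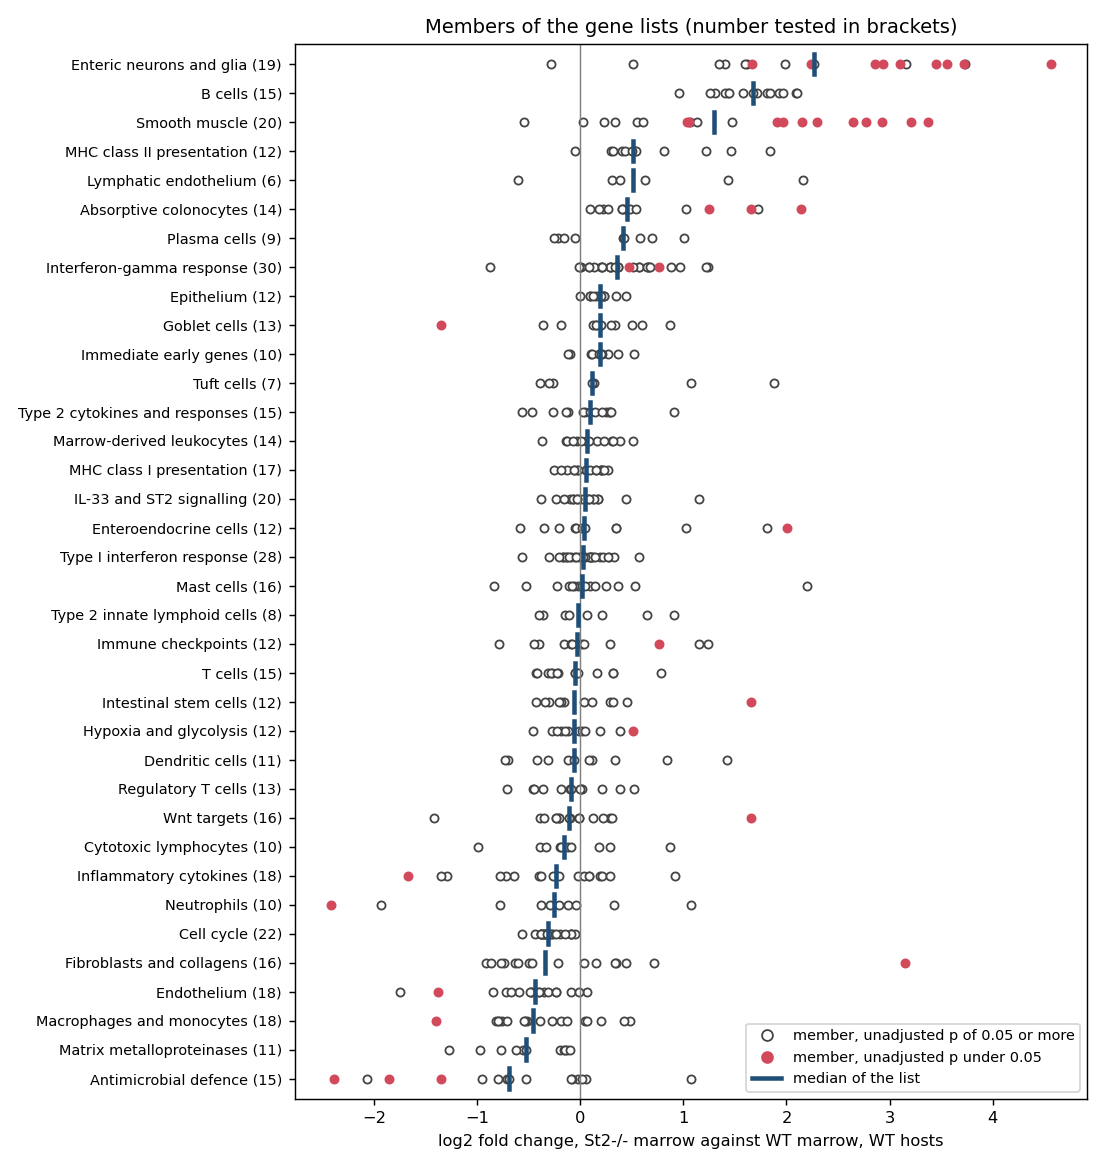
Log2 fold change, St2-/- marrow against WT marrow in WT hosts, of every tested member of 36 gene lists with at least 4 tested members, ordered by list median. Filled red circles have an unadjusted p under 0.05 and blue bars are medians. Muscle and nerve lists lie to the right with medians of 1.30 and 2.27, antimicrobial genes to the left with a median of -0.69, and the interleukin-33 and ST2 list at 0.04.

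The cell types that can carry ST2 were examined next, since the marrow supplies them. Mast cell markers had a median log2 fold change of 0.02 over 16 tested genes, with 0 under an unadjusted p of 0.05. Mcpt4, a connective tissue mast cell protease, was at 1.67 to 3.09 CPM in controls and at 0.343 to 2.41 CPM with St2-/- marrow. Hdc, which makes histamine, was at 7.30, 13.4 and 12.6 CPM against 14.0, 4.80 and 134 CPM. Gata2, a transcription factor of mast cells and basophils, was at 9.02, 17.3 and 17.0 CPM against 11.6, 4.03 and 47.1 CPM. Both were high in 1 tumour, replicate 3 of the St2-/- marrow group. Without it their log2 fold changes were -0.24 for Hdc and -0.89 for Gata2, from 2.20 and 0.53 with it. In St2-/- hosts, compared further below, all 16 mast cell genes were lower with St2-/- marrow, with a median of -1.53. Of these, 5 had an unadjusted p under 0.05 (edgeR), against 2.31% of all genes in that direction. Their summed level was 763, 2420 and 285 CPM under WT marrow and 282, 406 and 262 CPM under St2-/- marrow, which overlapped.

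Cytokine genes of group 2 innate lymphoid cells had few reads. Il5 and Il13, the main ones, had at most 3 reads in any of the 6 libraries and were not tested. Over the 8 tested of 11 markers the median log2 fold change was -0.02. Gata3, their main transcription factor, was at 6.37 to 6.57 CPM in controls and at 10.9, 11.6 and 7.89 CPM with St2-/- marrow, without overlap (log2 fold change 0.65, SE 0.38, edgeR adjusted p = 0.815). Il17rb, a receptor for interleukin-25, was at 1.37, 1.84 and 1.59 CPM against 2.24, 2.49 and 4.34 CPM (log2 fold change 0.91, SE 0.54, edgeR adjusted p = 0.815).

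Markers of eosinophils and basophils were at the limit of detection, with 3 of 13 tested and the eosinophil peroxidase gene Epx at 0 or 1 read in each library. Among 22 genes of type 2 cytokines and their responses, 15 were tested, with a median of 0.09. Stat6, which relays interleukin-4 and interleukin-13 signals, was at 133 to 164 CPM in controls and at 166 to 187 CPM in the others (log2 fold change 0.21, SE 0.13). Of all genes, 4.9% were higher and 5.41% lower without overlap. In this list Stat6 and Il17rb were higher without overlap, and 2 other members were lower without overlap. These were Mrc1, the mannose receptor of macrophages, at 26.2, 35.5 and 29.6 CPM against 22.7, 20.8 and 17.9 CPM (log2 fold change -0.57, SE 0.37), and Ccl24, an eosinophil chemokine (log2 fold change -0.47, SE 0.52). Regulatory T cell markers had a median of -0.09 over 13 genes, with 0 under an unadjusted p of 0.05. Tnfrsf9, a costimulatory receptor, had a log2 fold change of -0.71 (SE 0.35). Ctla4, an inhibitory receptor, was at 9.07 to 9.70 CPM in controls and at 7.75, 7.80 and 4.86 CPM with St2-/- marrow (log2 fold change -0.45, SE 0.33).

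Pan-leukocyte genes did not separate the groups. The 14 pan-leukocyte genes had a median log2 fold change of 0.07 and none had an unadjusted p under 0.05; Ptprc, which encodes CD45, was at 35.9, 46.1 and 68.4 CPM in controls and at 90.9, 92.8 and 30.1 CPM with St2-/- marrow. T cell markers had a median of -0.05 over 15 genes and cytotoxic lymphocyte markers one of -0.16 over 10. Gzmb, granzyme B, was at 6.87, 12 and 10.4 CPM against 4.83, 7.20 and 2.69 CPM (log2 fold change -0.99, SE 0.62).

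B cell markers were uneven between tumours. All 15 had a log2 fold change above 0, against 52% of all genes, and the median was 1.68. Yet 0 had an unadjusted p under 0.05 and in 0 were the groups free of overlap. Ms4a1, which encodes CD20, was at 3.69, 0.580 and 14.9 CPM in controls and at 35.9, 43.0 and 3.12 CPM with St2-/- marrow. The high tumours were replicates 1 and 2 of the St2-/- marrow group, while replicate 3 lay within the control range. Blk, a kinase of B cells, showed a log2 fold change of 1.84 (SE 1.06) and was high in the same tumours. With the smooth muscle level of each tumour as a covariate the B cell median was -0.28.

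Neutrophil markers were mixed, with a median of -0.25 over 10 tested genes and 8 below 0. S100a8, a subunit of calprotectin, was at 178, 66.7 and 183 CPM in controls and at 45.8, 16.3 and 17.8 CPM with St2-/- marrow. The groups did not overlap (log2 fold change -2.42, SE 0.97, edgeR adjusted p = 0.798). Its partner S100a9 was at 68.5, 67.8 and 201 CPM against 55.1, 9.34 and 23.9 CPM (log2 fold change -1.93, SE 0.88). The summed neutrophil level was 352, 294 and 544 CPM against 425, 90.3 and 147 CPM, which overlapped through replicate 1 of the St2-/- marrow group.

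Epithelial defence genes had the lowest median of the lists shown. Over 15 antimicrobial genes the median log2 fold change was -0.69; 12 were below 0, and 3 had an unadjusted p under 0.05, all lower, against 3.12% of all genes in that direction. Reg3b, a lectin that acts on bacteria, was at 1520, 632 and 2010 CPM in controls and at 349, 68.3 and 377 CPM with St2-/- marrow. The lowest control was above the highest of the others (log2 fold change -2.39, SE 1.01, edgeR adjusted p = 0.798). Its neighbour Reg3g was at 822, 384 and 1260 CPM against 316, 64.6 and 207 CPM, also without overlap (log2 fold change -2.07, SE 0.99). Saa3, a serum amyloid protein of inflamed tissue, and Ang4, an antimicrobial ribonuclease, had log2 fold changes of -1.86 (SE 0.56) and -1.35 (SE 0.59), with overlap in both. The summed level of the list was 11800, 11400 and 13100 CPM in controls and 7860, 9090 and 5970 CPM with St2-/- marrow, without overlap. The number of members under an unadjusted p of 0.05 was 1 without any single tumour of the St2-/- marrow group and 1 without control replicate 3.

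Among inflammatory cytokines the median was -0.24 over 18 genes. Il17a was at 2.15, 2.13 and 1.27 CPM in controls and at 1.03, 0.600 and 0.520 CPM with St2-/- marrow (log2 fold change -1.35, SE 0.70). Il23a, a subunit of interleukin-23, which supports cells that make interleukin-17, was at 0.258, 3.77 and 5.65 CPM against 1.12, 0.943 and 0.954 CPM. It had an unadjusted p under 0.05, while its lowest value was in a control (log2 fold change -1.67, SE 0.74).

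**Figure D4:**
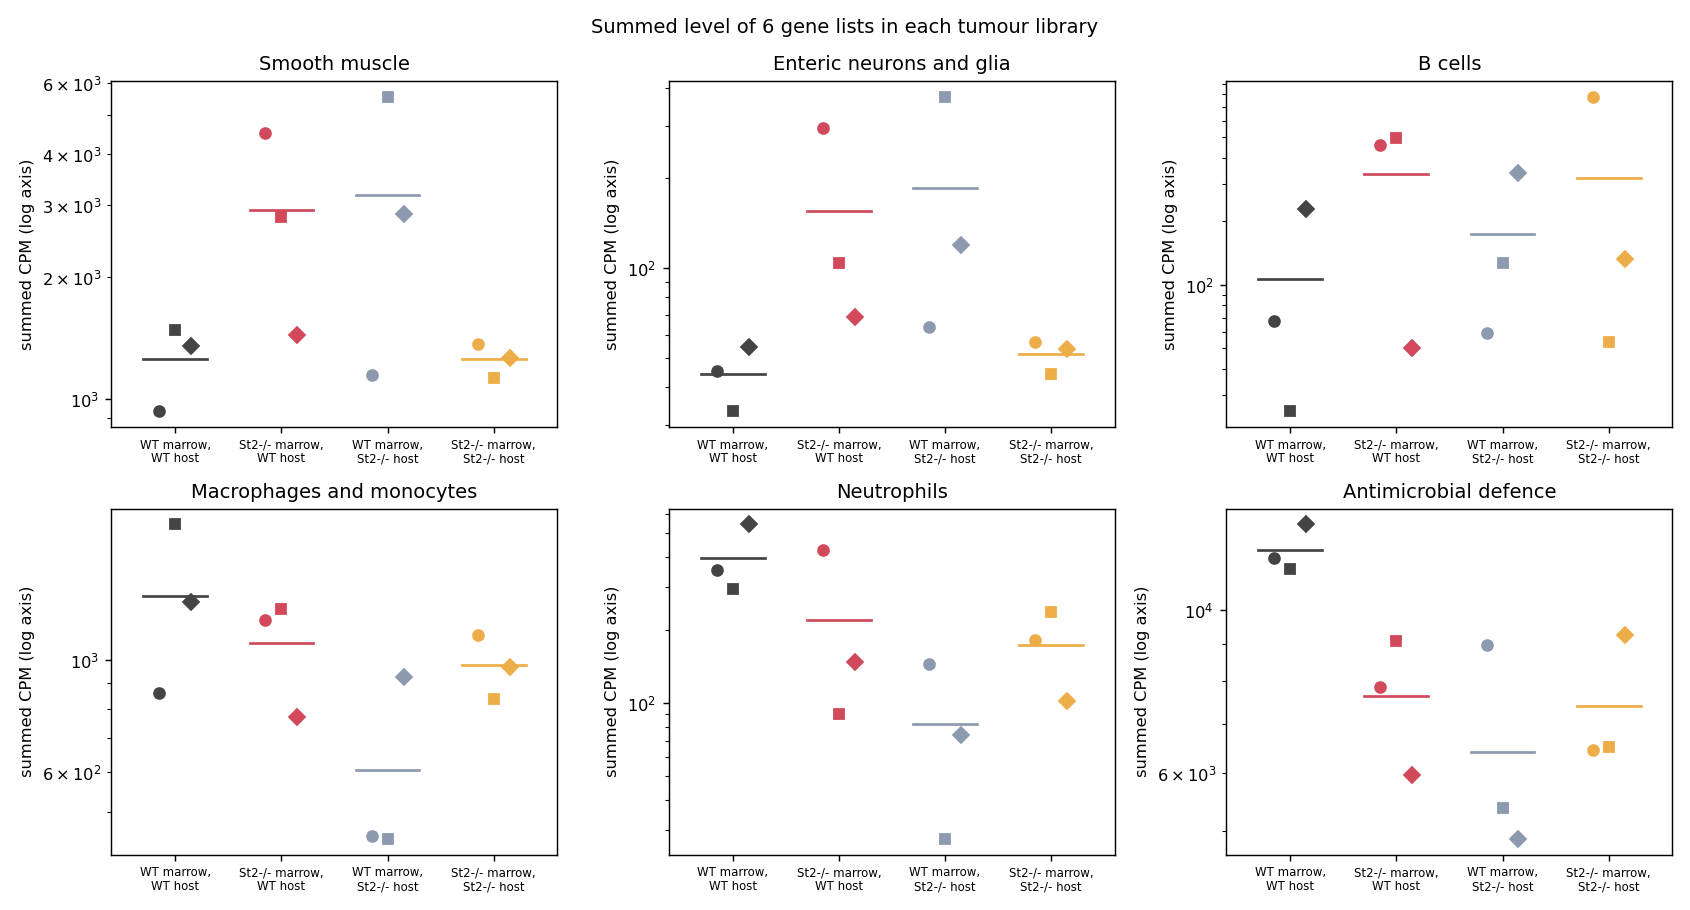
Summed CPM (log axis) of the members of 6 gene lists in each of the 12 tumours, by marrow and host. Circles, squares and diamonds are replicates 1, 2 and 3, and lines are arithmetic means. In WT hosts the neuron and glia list and the antimicrobial list do not overlap between marrows, and smooth muscle reaches 4510 CPM in replicate 1 of the St2-/- marrow group.

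Interferon-gamma response genes lay mostly above 0. Of 30 genes 27 had a positive log2 fold change, against 52% of all genes, with a median of 0.36. In this list 2 genes had an unadjusted p under 0.05, both higher, near the share of all genes (2.92% in that direction, 6.04% in either). Wars, a tRNA synthetase induced by interferon-gamma, was at 438, 463 and 449 CPM in controls and at 543, 765 and 562 CPM with St2-/- marrow, without overlap (log2 fold change 0.47, SE 0.20). Ido1, which breaks down tryptophan, was at 92.6, 88.2 and 170 CPM against 210, 405 and 212 CPM, also without overlap (log2 fold change 1.24, SE 0.57, edgeR adjusted p = 0.798). Cd274, which encodes the checkpoint ligand PD-L1, was at 27.1, 57.2 and 52.1 CPM against 80.2, 99.9 and 50.6 CPM. Its log2 fold change was 0.76 (SE 0.33), with replicate 3 of the St2-/- marrow group inside the control range. The 2 genes of this list under an unadjusted p of 0.05 were Wars and Cd274, while Ido1 was not under it. The list median was -0.13 without replicate 2 of the St2-/- marrow group, the tumour with the highest Wars, Ido1 and Cd274. Ciita, the switch for MHC class II genes, was also highest in that tumour, at 101 CPM against 15.5 to 37.9 CPM in the other 5, and the class II list had a median of 0.52, or -0.02 without it. Type I interferon response genes had a median of 0.02 over 28 genes and MHC class I genes one of 0.06 over 17, with 0 in either list under an unadjusted p of 0.05.

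Within the epithelium, genes of absorptive colonocytes lay above 0 in 14 of 14 cases, against 52% of all genes, with a median of 0.45. Of the 14, 3 had an unadjusted p under 0.05, all higher, against 2.92% of all genes in that direction. These were Cyp2c55, a cytochrome P450, Guca2a, which encodes guanylin, and Fabp2, a fatty acid binding protein. Guca2a was at 279, 57.3 and 136 CPM in controls and at 272, 643 and 210 CPM with St2-/- marrow, so that the groups overlapped (log2 fold change 1.25, SE 0.56). Cyp2c55 and Fabp2, at 33.3 and 48.5 CPM, were also highest in replicate 2 of the St2-/- marrow group. The list median was 0.02 without that tumour and 0.15 without control replicate 2.

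Lgr5, a marker of intestinal stem cells and a target of Wnt signalling, was at 3.26, 6.47 and 15.7 CPM in controls and at 50.4, 9.77 and 20.7 CPM with St2-/- marrow (log2 fold change 1.66, SE 0.70). It was the 1 gene under an unadjusted p of 0.05 among 12 stem cell genes, whose median was -0.06, and among 16 Wnt targets, whose median was -0.11. Pyy, a hormone of enteroendocrine cells, was at 761 CPM in replicate 3 of the St2-/- marrow group and at 51.3 to 151 CPM in the other 5 tumours, and its log2 fold change of 2.01 (SE 0.86) was 0.43 without that tumour. Cell cycle genes lay below 0 in 22 of 22 cases, by a small amount (median -0.32), with 0 under an unadjusted p of 0.05. Pcna, the sliding clamp of DNA replication, was at 77.9, 101 and 77.9 CPM against 60.3, 59.4 and 81.4 CPM (log2 fold change -0.35, SE 0.16). Rrm2, a subunit of ribonucleotide reductase, had a log2 fold change of -0.57 (SE 0.30). Matrix metalloproteinases lay below 0 in 11 of 11 cases, with a median of -0.53 and 0 under an unadjusted p of 0.05. Mmp2, a gelatinase of stroma, had a log2 fold change of -0.77 (SE 0.42). Over all 15060 genes tested, 7834 had a log2 fold change above 0 and 7225 below 0. Genes of a list share tumours and often cells, so their common sign does not count each gene as a separate observation.

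The same exchange of marrow was made in St2-/- hosts, in 6 other libraries, which share no tumour with those above. St2-/- marrow against WT marrow gave 0 calls there too (0% of 15060, edgeR, lowest adjusted p 0.256), with 610 genes (4.05%) at an unadjusted p under 0.05, of which 262 (1.74%) were higher and 348 (2.31%) lower. In those hosts 1 tumour with WT marrow, replicate 3, came from a female, while all others were male. Of the 910 genes at an unadjusted p under 0.05 in WT hosts, 272 (29.9%) had the same sign in St2-/- hosts, against 41.8% of all genes. In all, 126 genes were under 0.05 in both hosts, 13.8% of the list from WT hosts and 20.7% of the list from St2-/- hosts. Of these, 10 had the same sign and 116 opposite signs, of which 96 were higher with St2-/- marrow in WT hosts and 19 belong to the smooth muscle or the neuron and glia list. Across genes, which are not independent, the log2 fold changes in the 2 hosts had a Pearson correlation of -0.411.

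Muscle and nerve genes were among the lists that changed sign between the hosts. Smooth muscle genes had a median log2 fold change of 1.30 in WT hosts and -1.67 in St2-/- hosts, and neuron and glia genes 2.27 and -2.71. Other lists changed sign too, such as macrophages and monocytes at -0.46 and 0.70 and neutrophils at -0.25 and 1.42. Some lists kept their sign, such as endothelium at -0.44 and -0.46 and B cells at 1.68 and 0.90. Among tumours of St2-/- hosts with WT marrow, replicates 2 and 3 held 5540 and 2860 CPM of smooth muscle genes and replicate 1 held 1150 CPM. Without replicates 2 and 3 of that group, a choice made after seeing the data, the correlation across genes was 0.0911. That value rests on the 1 tumour left in the group. With all 12 tumours and the smooth muscle level of each as a covariate, the correlation across genes was -0.465. In that edgeR fit 257 genes had an unadjusted p under 0.05 in both hosts, 256 of them with opposite signs. The smooth muscle level itself moved in opposite directions with marrow in the 2 hosts, and the covariate had 1 slope per gene. An error in that slope shifts the 2 log2 fold changes in opposite directions. The correlation and the count from this fit therefore cannot show whether opposite signs remain beyond muscle. The cause of the opposite signs was not tested.

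When the difference between the hosts was tested itself, 0 genes were called (0%, edgeR) and 1144 (7.6%) had an unadjusted p under 0.05, 681 of them (4.52%) with the larger log2 fold change in WT hosts and 463 (3.07%) with the smaller. Gsdmc2 had the lowest adjusted p, 0.119. In St2-/- hosts it was at 546, 862 and 742 CPM with WT marrow and at 94.5, 112 and 65.4 CPM with St2-/- marrow, without overlap and in the other direction from WT hosts (log2 fold change -2.98, interval -3.88 to -2.08). The difference between its log2 fold changes was 4.46 (SE 0.56). The pseudogene Gsdmcl-ps, which the rule for named genes leaves out, came next, with a difference of 4.33 (SE 0.67, edgeR adjusted p = 0.377). Gsdmc3, Krt17, a keratin of stressed epithelium, and Gsdmc4 followed, with differences of 5.01 (SE 0.88), -3.05 (SE 0.56) and 4.23 (SE 0.81), each with an edgeR adjusted p of 0.539. Krt17 was at 23.2, 31.5 and 16.5 CPM in WT host controls and at 13.3, 9.26 and 18.1 CPM with St2-/- marrow, while in St2-/- hosts its log2 fold change was 2.24.

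Of the 24 genes named above for WT hosts, 4 of the 12 higher and 5 of the 12 lower had the same sign in St2-/- hosts. Vwf, at -1.38 in WT hosts, had a log2 fold change of -0.16 (interval -0.80 to 0.48) in St2-/- hosts, and Mybl1, at 1.03, had one of 0.04 (interval -0.50 to 0.58). Fcgr4 and C3ar1, lower in WT hosts, were at 1.08 (interval 0.39 to 1.76) and 1.16 (interval 0.34 to 1.98) in St2-/- hosts. Galnt9 was above 0 in both, at 3.14 and 1.27. These genes were picked on the WT host values, so the test of the difference between hosts is not independent of that choice, and nothing is drawn from it for them.

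**Figure D5:**
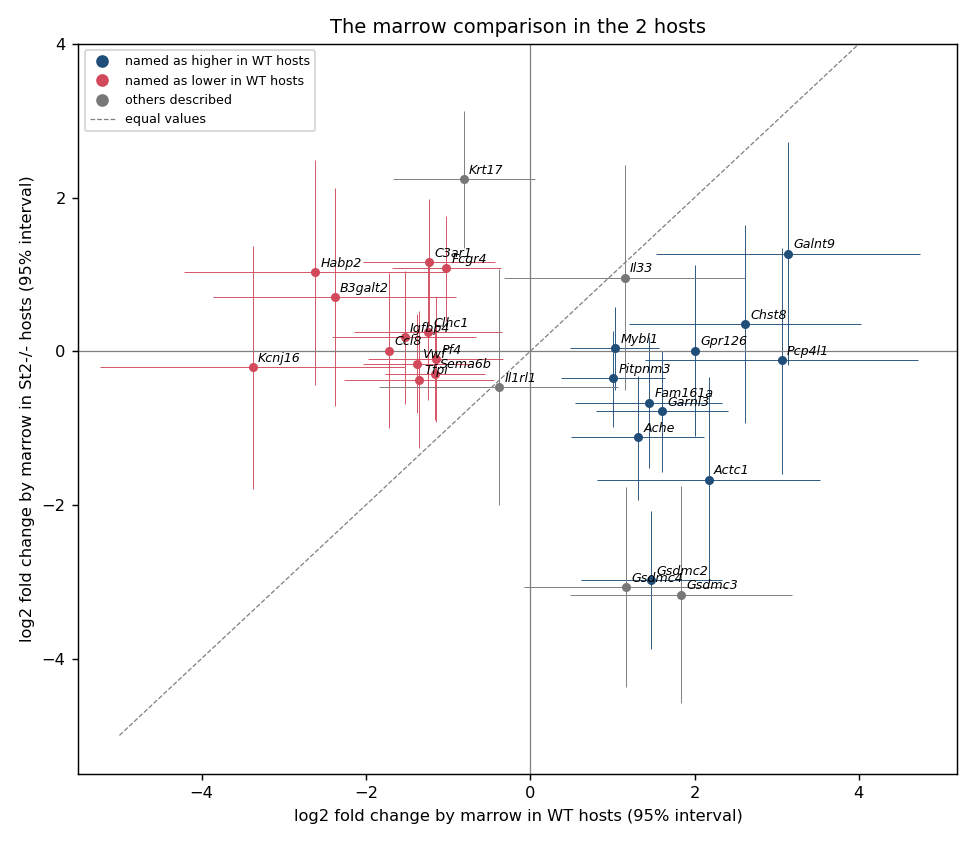
Log2 fold change by marrow (St2-/- against WT) in WT hosts, horizontal, and in St2-/- hosts, vertical, each with its 95% confidence interval, for 23 of the 24 named genes and for Gsdmc3, Gsdmc4, Krt17, Il1rl1 and Il33. Rims1 is left out because it had 0 reads in the controls. Few points lie near the dashed line of equal values, and the gasdermin genes lie at the lower right.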

How the data were processed

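RNA of 12 snap-frozen colon tumours was sequenced as single-end reads from TruSeq libraries, per the labels' protocols, all on 1 lane per the labels. TopHat and Bowtie2 are the aligners that the submitters' processing notes name, with GRCm38 (mm10) as genome; versions, the counting tool, annotation and strand setting are not given in the sources used here, so antisense or overlapping genes are less certain. The authors deposited raw read counts for 24062 genes and 5 entries that name no gene, which held 49.8% to 53.2% of each WT host library and were left out. Nothing in the labels says more of the replicates than that they are biological.

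Counts were analysed with edgeR 4.0.16 in R 4.3.3: filterByExpr by group (minimum count 10; 15060 kept, 9002 not), TMM, and a robust quasi-likelihood fit with 1 mean for each of the 4 groups over all 12 libraries. The marrow effect was contrasted in each host, and the 2 effects with each other. Tests were two-sided with Benjamini-Hochberg adjustment over all genes and a threshold of 0.05. CPM use TMM library sizes. The fit was tested on simulated data.

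Named genes were the 12 higher and 12 lower with the smallest unadjusted p among genes that differed by at least 1 log2 unit, with a mean of at least 1 CPM in 1 group and no overlap; predicted genes, pseudogenes, Xist and Y-linked genes were left out. Added to these were Il1rl1, Il33, members of the signalling list by role, the 4 or fewer smallest-p members of each of 39 lists, and 4 genes for the difference between hosts. Il5, Il13, Epx, Ccl24 and Gsdmcl-ps were named outside this rule, with their values known. Members and lists were chosen with earlier results of these data known. Alternatives were DESeq2 1.42.0 and its size factors, limma-voom (limma 3.58.1) with quality weights, other filters, a replicate block, covariates for weeks, smooth muscle and leukocytes, a fit of the 2 groups only, and each library left out. Coordinates are from GENCODE M21 on GRCm38.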

Additional observations from a re-analysis of the deposited data

How the results depend on the processing

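In WT hosts 0 genes were called under every alternative run. The number of genes with an unadjusted p under 0.05 was 2431 with limma-voom, 608 in a fit of the 2 groups only, and between 455 (without St2-/- marrow replicate 1) and 1681 (without St2-/- marrow replicate 3) when single libraries were left out; it was 581 without St2-/- marrow replicate 2 and 512 without control replicate 2. In St2-/- hosts 16 genes were called with DESeq2, 4 with limma-voom and 0 to 1 when single libraries were left out. For the difference between hosts 88 genes were called with DESeq2 and 4 with limma-voom. Without replicates 2 and 3 of WT marrow in St2-/- hosts 1 gene was called in St2-/- hosts and 1 for the difference; that fit leaves 1 tumour in the group, assumed to vary like the others, so these calls have no replicate check. The cause of these moves was not tested.

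The replicate numbers gave no sign of pairing the tumours. The deviations of same-numbered tumours from their group means had correlations of -0.12, -0.44 and -0.12. Deviations within a group sum to 0, so these few values cannot exclude a pairing. With the number as a block 0 genes were called and 795 had an unadjusted p under 0.05. With the block, 5 smooth muscle and 6 neuron and glia genes were under 0.05.

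Signs turned for 5 of the named genes. When single libraries were left out, Il1rl1 ranged from -0.93 to 0.34, Gata2 from -0.89 to 1.01 and Hdc from -0.24 to 2.73. Il1rl1 was at 0.04 without St2-/- marrow replicate 2 and at 0.34 without control replicate 3. Gata2 was at -0.06 with the leukocyte covariate, -0.54 with limma-voom and -0.89 without St2-/- marrow replicate 3, and Hdc at -0.24 without that replicate. With the smooth muscle covariate Myd88 was at 0.15 and Ptprc at -0.58. The other named genes kept their sign under all alternatives. Depth limited the type 2 cytokine and eosinophil genes, most of which had a few reads or none.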

Other observations

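Of the 126 genes with an unadjusted p under 0.05 in both hosts, 10 had the same direction and 116 opposite directions. Ndrg1, a gene induced by low oxygen, was 1 of the 10. It was at 241, 181 and 249 CPM in WT hosts with WT marrow and at 229, 343 and 383 CPM in WT hosts with St2-/- marrow, which overlapped. The log2 fold change was 0.51 (SE 0.22, edgeR adjusted p = 0.798) in WT hosts and 0.51 (SE 0.22) in St2-/- hosts. The other 11 genes of the hypoxia and glycolysis list did not reach an unadjusted p of 0.05 in WT hosts, and the list median was -0.06.

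Apcdd1, an inhibitor of Wnt signalling that is itself a Wnt target, was at 69.5, 214 and 118 CPM in controls and at 41.9, 25.6 and 82.0 CPM with St2-/- marrow, with overlap (log2 fold change -1.42, SE 0.87, edgeR adjusted p = 0.816). Goblet cell genes had a median of 0.19 over 13 genes and tuft cell genes one of 0.11 over 7, with Ang4 the 1 gene of either list under an unadjusted p of 0.05. Plasma cell genes had a median of 0.41 over 9 genes, fibroblast and collagen genes one of -0.34 over 16, and dendritic cell genes one of -0.06 over 11. Lymphatic endothelium had a median of 0.51 over 6 genes and immune checkpoint genes one of -0.03 over 12. Immediate early genes, which respond to handling of tissue, had a median of 0.19 over 10 genes, with 0 under an unadjusted p of 0.05.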
